A study of Homo sapiens with 6 samples.

Results

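The genes described here were measured by RNA sequencing of primary human dermal fibroblasts with or without a MyoD transgene, and are 10 that encode secreted Wnt signalling proteins, their antagonists and intracellular targets. They are the ligands WNT5A and WNT5B, the agonist RSPO3, the antagonists DKK1, DKK2, DKK3, SFRP1 and SFRP2, and the targets AXIN2 and LEF1. They were chosen by name, their transcript counts were summed per gene symbol, and they are 10 of 23540 genes in the table. All 10 were present and all 10 passed the filter on low counts. VP64-MyoD cells carried mouse MyoD with the VP64 activation domain fused to its N-terminus, delivered by a Tet-ON lentivirus that co-expresses dsRed-Express2, were selected in puromycin, and were harvested after 10 days with 3 µg/mL doxycycline. WT-MyoD cells carried wild-type mouse MyoD in the same vector, with the same selection, doxycycline dose and harvest day. Untreated cells are labelled as expressing no introduced gene and served as the negative control; whether they received virus, puromycin or doxycycline is not given in the sources used here. Each group had 2 libraries of polyA RNA, which the submitters call biological duplicates. All 6 came from 1 fibroblast line, so the tests measure the spread between duplicates of that line and say nothing of other donors.

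Wnt proteins are secreted lipid-modified signals that bind Frizzled receptors together with LRP5, LRP6, ROR1, ROR2 or RYK. In the canonical branch, binding stabilises β-catenin, which enters the nucleus and activates genes with the TCF and LEF factors. R-spondins raise the amount of receptor at the cell surface, DKK proteins bind LRP5 and LRP6, and SFRP proteins bind the Wnt ligands themselves. WNT5A and WNT5B act mainly through β-catenin-independent branches. In skin, dermal fibroblasts are a source of Wnt ligands and antagonists, and in the embryo Wnt signals help to start the muscle program in which MyoD acts.

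Deposited counts summed to 40997586 to 53804224 per library. The MyoD transgene reached 115 and 96.5 CPM (counts scaled to an equal library size) in VP64-MyoD cells, 758 and 1015 CPM in WT-MyoD cells, and 5.09 and 1.05 CPM in untreated cells, so it was 3.06 log2 units lower in VP64-MyoD than in WT-MyoD cells (SE 0.25, edgeR adjusted p = 4.21e-08). The 10 skeletal muscle markers summed to 5155 to 5920 CPM in VP64-MyoD cells, 946 to 972 CPM in WT-MyoD cells and 17.2 to 17.8 CPM in untreated cells. The 10 fibroblast markers, all detected above 1 CPM, summed to 28825 to 31211 CPM in VP64-MyoD cells, 27143 to 31165 CPM in WT-MyoD cells and 41520 to 43845 CPM in untreated cells. Most of each sum is COL1A1 and COL1A2, and not every marker followed it. S100A4 was at 76.6 and 80.6 CPM in VP64-MyoD cells, 85.0 and 82.4 CPM in WT-MyoD cells, and 22.5 and 18.8 CPM in untreated cells. LUM was likewise higher in every MyoD library, and DCN and THY1 were higher in WT-MyoD than in untreated libraries. COL3A1 and PDGFRA overlapped between WT-MyoD and untreated libraries. Markers of keratinocytes, endothelium, melanocytes, blood, Schwann cells and adipocytes summed to at most 11.6 CPM per cell type in any library, and KRT1, TYR and CD3E were at 0 in all 6. The part of the muscle and fibroblast markers in the values below was not tested. In these bulk libraries, fewer cells of a type and less RNA per cell cannot be told apart.

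Of the 10 genes, RSPO3, DKK1 and SFRP1 changed in opposite directions over untreated cells with the 2 forms of MyoD, WNT5B and DKK3 were higher with both, and WNT5A and DKK2 were lower with both. In VP64-MyoD cells WNT5B, DKK3 and LEF1 were higher than in untreated cells, and WNT5A, RSPO3, DKK1, DKK2 and SFRP1 were lower. In WT-MyoD cells WNT5B, RSPO3, DKK1, DKK3, SFRP1 and AXIN2 were higher than in untreated cells, and WNT5A and DKK2 were lower. SFRP2 passed the test in neither comparison. Levels are CPM scaled by the trimmed mean of M-values (TMM). A gene is called when edgeR's quasi-likelihood test gives an adjusted p under 0.05. The adjustment, by Benjamini and Hochberg's method, covers 15778 genes and the transgene.

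**Figure D1:**
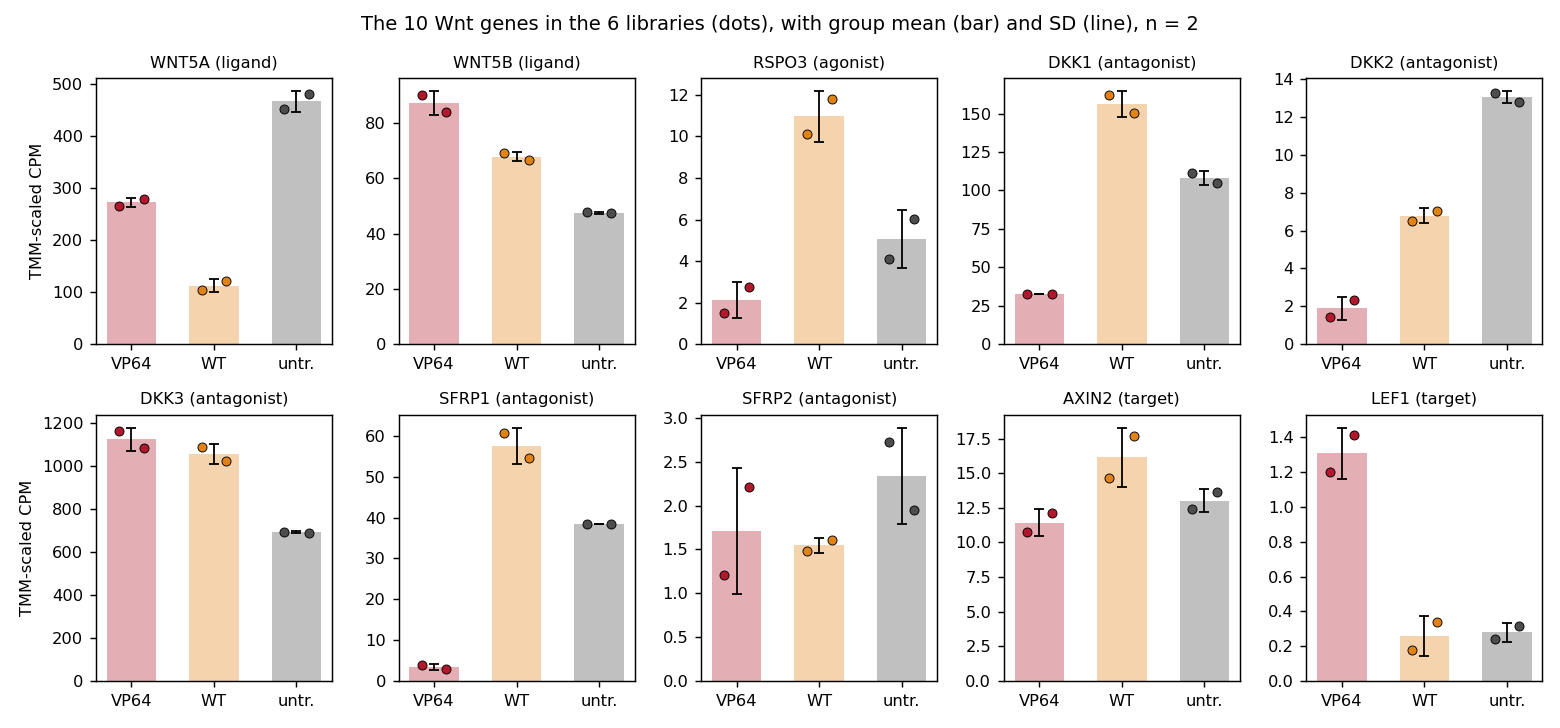
TMM-scaled CPM of each of the 10 genes in the 2 VP64-MyoD, 2 WT-MyoD and 2 untreated libraries (dots), with the group mean (bar) and SD (line); each panel has its own axis from 0. SFRP1 and DKK1 have their lowest bar in VP64-MyoD cells and their highest in WT-MyoD cells, while LEF1 has its highest bar in VP64-MyoD cells.

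In VP64-MyoD over untreated cells, 3 of the 10 were called higher, where 33.0% of all tested genes were, and 5 were called lower, where 30.0% of all genes were. In WT-MyoD over untreated cells, 6 were called higher against 25.7% of all genes, and 2 were called lower against 22.2%. In VP64-MyoD over WT-MyoD cells, 3 were called higher against 28.4% of all genes, and 5 were called lower against 28.2%. Hence 8 of the 10 were thus called in each comparison, beside 63.1%, 47.9% and 56.6% of all genes. The median log2 fold change of the 10 was -0.61, 0.41 and -0.20 in these 3 comparisons, beside 0.03, 0 and 0.02 over all genes. Scaling by library totals alone moved the median of all genes to 0.22 in VP64-MyoD over untreated cells and 0.17 in WT-MyoD over untreated cells. The share of called genes that were higher was then 68.5% and 75.6%, beside 52.4% and 53.7% with TMM. The 2 comparisons with untreated cells share the same 2 untreated libraries, so the direct comparison of the 2 MyoD groups is given for each gene as well.

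**Figure D2:**
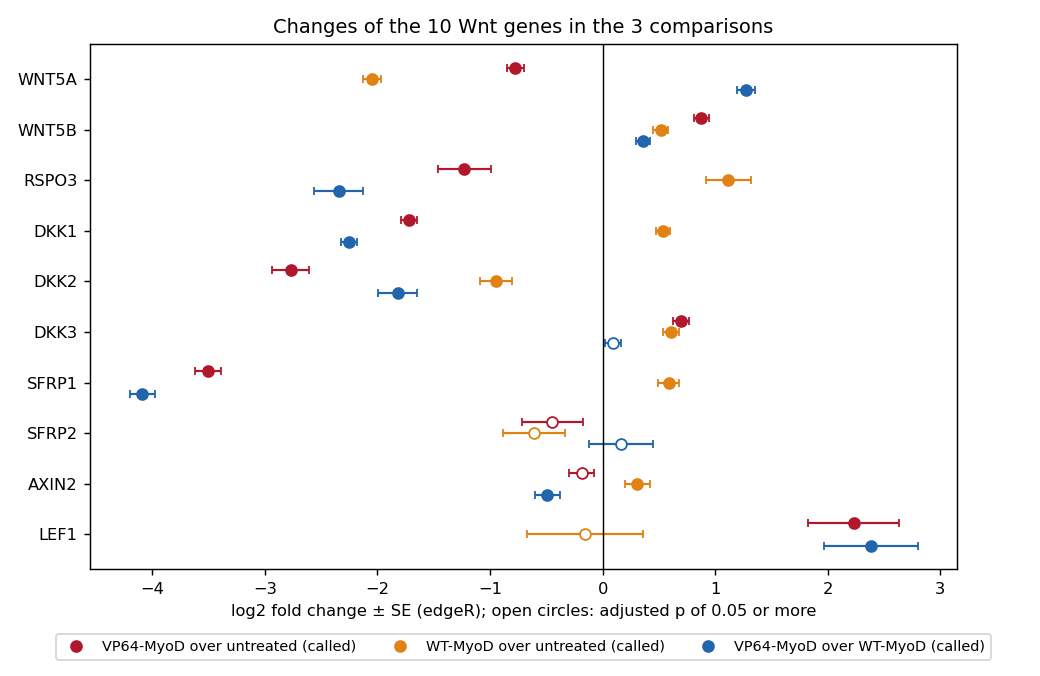
Log2 fold change with its SE (horizontal line) of each of the 10 genes in VP64-MyoD over untreated (red), WT-MyoD over untreated (orange) and VP64-MyoD over WT-MyoD (blue); open circles did not pass the test. RSPO3, DKK1 and SFRP1 have the WT-MyoD point right of 0 and both other points left of it.

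WNT5A, a ligand of the β-catenin-independent branches that acts through ROR2 and Frizzled receptors, was at 265 and 279 CPM in VP64-MyoD cells, 104 and 122 CPM in WT-MyoD cells, and 452 and 480.2 CPM in untreated cells. The 3 groups did not overlap, and WT-MyoD cells were lowest. WNT5A fell 1.71-fold in VP64-MyoD over untreated cells (log2 -0.78, SE 0.08, edgeR adjusted p = 2.76e-07) and 4.14-fold in WT-MyoD over untreated cells (log2 -2.05, SE 0.08, adjusted p = 4.87e-12). It was 2.42-fold higher in VP64-MyoD than in WT-MyoD cells (log2 1.27, SE 0.08, adjusted p = 1.58e-09). Its paralogue WNT5B was at 90.2 and 84.1 CPM in VP64-MyoD cells, 69.0 and 66.7 CPM in WT-MyoD cells, and 47.7 and 47.3 CPM in untreated cells. WNT5B thus lay above untreated cells in both MyoD groups where WNT5A lay below them, again with no overlap. It rose 1.83-fold in VP64-MyoD cells (log2 0.88, SE 0.06, edgeR adjusted p = 1.01e-08) and 1.43-fold in WT-MyoD cells (log2 0.52, SE 0.06, adjusted p = 6.73e-06), both over untreated cells. The direct difference between the MyoD groups was smaller, with WNT5B 1.28-fold higher in VP64-MyoD cells (log2 0.36, SE 0.06, adjusted p = 0.000178).

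Divided by the length of each gene's longest transcript, the level of WNT5A exceeded that of WNT5B in VP64-MyoD cells by a ratio of 1.097 and 1.24. The same ratio was 0.560 and 0.681 in WT-MyoD cells, and 3.53 and 3.79 in untreated cells. On these lengths WNT5B was the more abundant of the pair in both WT-MyoD libraries, and WNT5A in the other 4. The longest WNT5A transcript has 6176 bases, while 44.5% to 48.6% of WNT5A counts per library lay on a row of 1299 bases. A shorter length for WNT5A would raise every ratio. Which of the pair is more abundant in WT-MyoD cells thus rests on this choice of length.

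**Figure D3:**
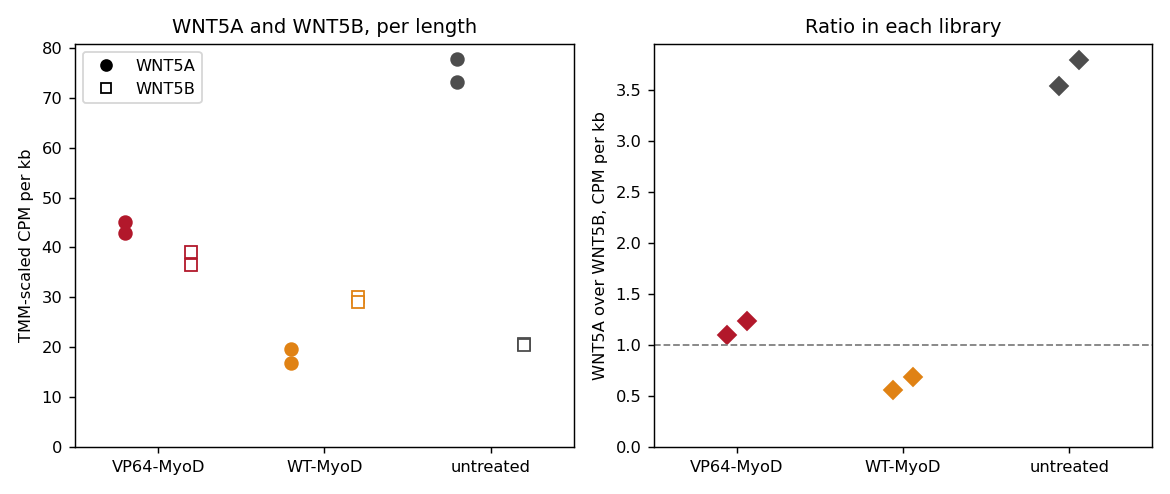
Left, TMM-scaled CPM per kb of WNT5A (filled circles) and WNT5B (open squares) in each library of the VP64-MyoD, WT-MyoD and untreated groups; right, the ratio of WNT5A to WNT5B per kb in each library (diamonds), with a dashed line at a ratio of 1. With each gene divided by its longest transcript, the ratio lies above 3.5 in untreated cells, between 1 and 1.3 in VP64-MyoD cells and below 0.7 in WT-MyoD cells.

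The 250 bases upstream of a transcription start were read from RefSeq on GRCh38.p14 for 6 of the 10 genes. Windows of 5 of these genes are shown because their genes differed in size or direction of change between the MyoD groups. MyoD and its relatives bind the E-box CANNTG, and TCF and LEF factors bind sites with the core CTTTGA. Capitals mark each match to either motif on either strand, so the reverse complement TCAAAG is in capitals too; CAGCTG is one form of CANNTG. DKK1 (chr10:52314031-52314280, plus strand), RSPO3 (chr6:127118421-127118670, plus strand), LEF1 (chr4:108166302-108166551, minus strand), the first WNT5A start (chr3:55487307-55487556, minus strand) and the second WNT5B start (chr12:1628981-1629230, plus strand) have these upstream bases, 5′ to 3′.
DKK1: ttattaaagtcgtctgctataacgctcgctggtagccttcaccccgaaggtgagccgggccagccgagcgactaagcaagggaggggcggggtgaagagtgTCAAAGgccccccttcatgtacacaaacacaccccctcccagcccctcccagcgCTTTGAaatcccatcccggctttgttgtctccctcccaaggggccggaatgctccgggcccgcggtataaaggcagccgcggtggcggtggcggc
RSPO3: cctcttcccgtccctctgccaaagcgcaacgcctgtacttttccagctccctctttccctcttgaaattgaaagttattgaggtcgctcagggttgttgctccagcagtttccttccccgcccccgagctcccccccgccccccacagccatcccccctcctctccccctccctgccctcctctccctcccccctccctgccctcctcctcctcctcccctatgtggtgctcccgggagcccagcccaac
LEF1: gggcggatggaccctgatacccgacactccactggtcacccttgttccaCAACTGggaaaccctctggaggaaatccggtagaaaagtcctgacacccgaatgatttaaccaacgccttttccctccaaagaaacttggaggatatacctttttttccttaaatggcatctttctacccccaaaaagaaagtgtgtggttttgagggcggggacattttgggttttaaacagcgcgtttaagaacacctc
WNT5A: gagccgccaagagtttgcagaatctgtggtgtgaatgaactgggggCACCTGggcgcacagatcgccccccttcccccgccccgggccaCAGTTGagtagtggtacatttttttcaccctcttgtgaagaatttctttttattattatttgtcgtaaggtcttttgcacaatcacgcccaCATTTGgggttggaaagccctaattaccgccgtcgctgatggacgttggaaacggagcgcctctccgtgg
WNT5B: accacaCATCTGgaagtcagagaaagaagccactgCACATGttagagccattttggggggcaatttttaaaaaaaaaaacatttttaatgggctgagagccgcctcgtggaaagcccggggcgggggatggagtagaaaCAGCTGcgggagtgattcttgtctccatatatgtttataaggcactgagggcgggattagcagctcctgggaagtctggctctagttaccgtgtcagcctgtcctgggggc
The DKK1 window holds 2 matches to CTTTGA and no E-box, the RSPO3 window holds neither motif, the LEF1 window holds 1 E-box with the letters CAACTG, the WNT5A window holds 3 E-boxes and no CTTTGA, and the WNT5B window holds 3 E-boxes, 1 of them CAGCTG, and no CTTTGA. Of 35116 RefSeq windows of the same length, 61.82% hold CANNTG, 13.99% hold CAGCTG and 11.21% hold CTTTGA. A second WNT5A start, the first WNT5B start and the SFRP2 start also have windows. The second WNT5A window holds 2 E-boxes, 1 of them CAGCTG, the other windows hold no E-box, and none of these windows holds CTTTGA. For WNT5A and for WNT5B, the printed window is thus the one with more E-boxes. The bases just after the start were found in no GENCODE transcript for DKK1, LEF1 and the second WNT5A start. They were found in at least 1 for RSPO3 and for the printed WNT5A and WNT5B starts. Whether the DKK1 and LEF1 windows lie upstream of the transcripts counted here was not tested. The matches describe letters and not occupied sites. DKK2, DKK3, SFRP1 and AXIN2 are named without a sequence.

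RSPO3, an R-spondin that amplifies Wnt signals through LGR receptors, was scarce. It was at 1.505 and 2.75 CPM in VP64-MyoD cells, 10.1 and 11.8 CPM in WT-MyoD cells, and 4.09 and 6.04 CPM in untreated cells. The groups did not overlap, and the VP64-MyoD libraries rest on 70 and 144 counts. RSPO3 fell 2.34-fold in VP64-MyoD over untreated cells (log2 -1.23, SE 0.23, edgeR adjusted p = 0.000294) and rose 2.17-fold in WT-MyoD over untreated cells (log2 1.12, SE 0.20, adjusted p = 0.000242). Between the MyoD groups it was 5.08-fold lower in VP64-MyoD cells (log2 -2.35, SE 0.22, adjusted p = 2.73e-07).

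DKK1, a secreted antagonist that binds LRP5 and LRP6 and is itself a known β-catenin target, was at 32.7 and 32.8 CPM in VP64-MyoD cells, 162 and 150.2 CPM in WT-MyoD cells, and 111 and 105 CPM in untreated cells. VP64-MyoD libraries lay far below both other groups, and the WT-MyoD libraries lay above the untreated ones. DKK1 fell 3.29-fold in VP64-MyoD over untreated cells (log2 -1.72, SE 0.07, edgeR adjusted p = 4.82e-12) and rose 1.45-fold in WT-MyoD over untreated cells (log2 0.53, SE 0.06, adjusted p = 4.07e-06). The direct difference was 4.77-fold, lower in VP64-MyoD than in WT-MyoD cells (log2 -2.25, SE 0.07, adjusted p = 5.77e-13). DKK1 overlaps the antisense gene PRKG1-AS1 by 212 bases of exon, and the library method marks no strand, so reads there cannot be told apart. PRKG1-AS1 had 252 and 322 counts in VP64-MyoD cells, 156 and 150 in WT-MyoD cells, and 158 and 152 in untreated cells, an order unlike that of DKK1.

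SFRP1, which binds Wnt ligands outside the cell, had the largest log2 fold change of the 10 in VP64-MyoD over untreated cells. It was at 3.91 and 2.90 CPM in VP64-MyoD cells, 60.7 and 54.4 CPM in WT-MyoD cells, and 38.4 CPM in both untreated libraries. The VP64-MyoD libraries held 182 and 152 counts, where every other library held at least 1692. SFRP1 fell 11.3-fold in VP64-MyoD over untreated cells (log2 -3.50, SE 0.11, edgeR adjusted p = 4.53e-13) and rose 1.5-fold in WT-MyoD over untreated cells (log2 0.58, SE 0.09, adjusted p = 5.15e-05). It was 17.0-fold lower in VP64-MyoD than in WT-MyoD cells (log2 -4.09, SE 0.11, adjusted p = 2.57e-13). RSPO3, DKK1 and SFRP1 were each called lower in VP64-MyoD over untreated cells and higher in WT-MyoD over untreated cells.

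DKK2, which binds the same LRP receptors and can activate or block signalling depending on the cell, was at 1.46 and 2.33 CPM in VP64-MyoD cells, 6.50 and 7.05 CPM in WT-MyoD cells, and 13.3 and 12.8 CPM in untreated cells. It was lower with either form of MyoD, without overlap of groups. DKK2 fell 6.82-fold in VP64-MyoD over untreated cells (log2 -2.77, SE 0.16, edgeR adjusted p = 7.39e-10) and 1.93-fold in WT-MyoD over untreated cells (log2 -0.95, SE 0.14, adjusted p = 3.89e-05). It was 3.53-fold lower in VP64-MyoD than in WT-MyoD cells (log2 -1.82, SE 0.17, adjusted p = 2.68e-07).

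DKK3, a divergent DKK protein whose place in Wnt signalling is less settled, was the most abundant of the 10 on counts summed over its transcript rows. It was at 1161 and 1084 CPM in VP64-MyoD cells, 1087 and 1021 CPM in WT-MyoD cells, and 695 and 690 CPM in untreated cells. The MyoD groups overlapped each other and both lay above the untreated libraries. DKK3 rose 1.62-fold in VP64-MyoD (log2 0.70, SE 0.07, edgeR adjusted p = 3.07e-07) and 1.52-fold in WT-MyoD cells (log2 0.61, SE 0.07, adjusted p = 2.06e-06) over untreated cells. VP64-MyoD and WT-MyoD cells differed by log2 0.09 (SE 0.07, adjusted p = 0.273), and without WT-MyoD replicate 1 this difference passed the test at an adjusted p of 0.0462.

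SFRP2, a relative of SFRP1, was at 1.204 and 2.21 CPM in VP64-MyoD cells, 1.48 and 1.61 CPM in WT-MyoD cells, and 2.73 and 1.95 CPM in untreated cells. With 56 to 136 counts per library it passed the edgeR test nowhere, at log2 -0.45 in VP64-MyoD over untreated cells (SE 0.27, adjusted p = 0.164) and log2 -0.61 in WT-MyoD over untreated cells (SE 0.28, adjusted p = 0.0824). The difference of VP64-MyoD over WT-MyoD cells was log2 0.16 (SE 0.28, adjusted p = 0.650). The VP64-MyoD libraries span the values of both WT-MyoD libraries and overlap the untreated ones. SFRP2 passed the test in VP64-MyoD over untreated cells without VP64-MyoD replicate 2 (adjusted p = 0.0167), and in WT-MyoD over untreated cells without VP64-MyoD replicate 1 (adjusted p = 0.0454).

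AXIN2, a scaffold of the β-catenin destruction complex and a widely used read-out of canonical signalling, differed by small folds. It was at 10.7 and 12.1 CPM in VP64-MyoD cells, 14.7 and 17.7 CPM in WT-MyoD cells, and 12.4 and 13.6 CPM in untreated cells. The groups did not overlap, yet the 2 WT-MyoD libraries lay farther from each other than the lower of them lay from the nearest untreated library. AXIN2 rose 1.24-fold in WT-MyoD over untreated cells (log2 0.31, SE 0.11, edgeR adjusted p = 0.0313), and this call was lost with DESeq2 (adjusted p = 0.0511), without WT-MyoD replicate 2 (0.178), without untreated replicate 1 (0.216) and without untreated replicate 2 (0.0558). In VP64-MyoD over untreated cells the value was log2 -0.18 (SE 0.11, adjusted p = 0.164). AXIN2 was 1.41-fold lower in VP64-MyoD than in WT-MyoD cells (log2 -0.49, SE 0.11, adjusted p = 0.00139). It shares 1316 exon bases with AC004805.1 on the same strand. That gene has no counts of its own here, so reads from the shared bases cannot be told apart.

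LEF1, a DNA-binding partner of β-catenin and itself a target, was at 1.204 and 1.41 CPM in VP64-MyoD cells, 0.177 and 0.341 CPM in WT-MyoD cells, and 0.241 and 0.318 CPM in untreated cells. These levels rest on 56 and 74 counts in VP64-MyoD cells, 10 and 14 in WT-MyoD cells, and 12 and 14 in untreated cells. LEF1 thus stood apart in VP64-MyoD cells, while the other groups overlapped. It rose 4.68-fold in VP64-MyoD over untreated cells (log2 2.23, SE 0.41, edgeR adjusted p = 0.000204) and was 5.22-fold higher in VP64-MyoD than in WT-MyoD cells (log2 2.38, SE 0.41, adjusted p = 0.000157). In WT-MyoD over untreated cells the value was log2 -0.16 (SE 0.51, adjusted p = 0.832), which did not pass the test at this depth. Its antisense neighbour LEF1-AS1 had at most 2 counts in any library.

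Levels of different genes, as means of 2 libraries per group, were set side by side per kilobase of the longest matched transcript. The places of WNT5A depend on that choice of length. Counts of DKK3, WNT5A, WNT5B and LEF1 are also sums over several transcript rows. How reads that fit more than 1 row were assigned is not given in the sources used here. If such reads were counted on each row, these genes are overstated against genes with a single row. In VP64-MyoD cells DKK3 led at 424 CPM per kb, followed by WNT5A at 44.1, WNT5B at 37.8, DKK1 at 18.3 and AXIN2 at 2.69 CPM per kb. The other 5 lay below 1 CPM per kb, and SFRP2, RSPO3 and SFRP1 overlapped as neighbours in that order, as did DKK2 and LEF1. In WT-MyoD cells DKK3 at 398 CPM per kb was followed by DKK1 at 87.3, WNT5B at 29.5, WNT5A at 18.2 and SFRP1 at 12.8 CPM per kb. RSPO3 at 4.06 and AXIN2 at 3.79 CPM per kb overlapped, with DKK2, SFRP2 and LEF1 below them. In untreated cells the order was DKK3 at 261, WNT5A at 75.5, DKK1 at 60.3, WNT5B at 20.6 and SFRP1 at 8.55 CPM per kb, then DKK2, AXIN2, RSPO3, SFRP2 and LEF1 between 3.59 and 0.0803 CPM per kb, with no overlap of neighbours. On these summed rows and lengths, DKK1 ranked above WNT5A in WT-MyoD cells and below it in the other groups.

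Several of the 10 genes have more than 1 transcript row in the table. The longer WNT5A transcript took 51.4% and 52.3% of the gene's counts in VP64-MyoD cells, 54.3% and 55.5% in WT-MyoD cells, and 52.0% and 53.5% in untreated cells. Each of the 2 WNT5B rows took between 48.7% and 51.3% in every library, and each of the 3 DKK3 rows between 32.8% and 33.6%. How reads that fit more than 1 row were assigned is not given in the sources used here. The shares of rows, near even for these genes, therefore need not measure transcript use. The shares of the 4 LEF1 rows varied widely on at most 32 counts each. The row with the widest range took 32.1% and 16.2% of LEF1 counts in VP64-MyoD cells, 60% and 14.3% in WT-MyoD cells, and 0% and 14.3% in untreated cells. In the authors' deposited table of changed transcripts, rows of WNT5A, WNT5B, DKK1, DKK2, DKK3 and SFRP1 appear, 10 rows in all. The largest DESeq adjusted p in it is 9.95e-06 in VP64-MyoD and 9.82e-06 in WT-MyoD over untreated cells. That cut is far stricter than the one used here, so the absence of RSPO3, SFRP2, AXIN2 and LEF1 does not mean that they were unchanged. The authors' deposited table gives SFRP1 a log2 fold change of -3.49 in VP64-MyoD over untreated cells and 0.59 in WT-MyoD over untreated cells. For DKK1 the authors' deposited table gives -1.72 and 0.54 in the same order.

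For the 10 genes, the genes of the whole table with the nearest pattern were found by Euclidean distance over the 6 libraries, on log2(CPM + 1) centred per gene, among genes of at least 10 CPM on average. Nearest to WNT5A were PRAG1 at a distance of 0.15 and ADAM12 at 0.16, and nearest to WNT5B were NCBP1 at 0.0768 and RTN4 at 0.10. RSPO3 was nearest to TLE1 at 0.50 and PAM at 0.52, and DKK1 to ALDH1A3 at 0.22 and CLDN11 at 0.225. DKK2 was nearest to TMTC2 and ECM2, both at 0.26, and DKK3 to EIF4A3 at 0.0726 and TSR2 at 0.0834. SFRP1 was nearest to IRAG1 at 0.34 and TNXA at 0.67, and both were likewise lowest in VP64-MyoD cells, at 1.79 and 0.487 CPM. SFRP2 was nearest to DRAM2 at 0.29 and MAP9 at 0.32, and AXIN2 to RPS6KA3 at 0.0675 and RUBCN at 0.105. No neighbours are given for LEF1, whose level is near or below the added 1, so that its distance is set by that constant more than by its fold change, and distances of the other genes at a few CPM are compressed by it in part. The libraries share their groups and scaling, so these distances describe and do not test.

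Of 125 other Wnt pathway genes listed by role, 101 passed the filter. In VP64-MyoD over untreated cells 32 of them were called higher, 42 lower and 27 neither, where 33.0% of all genes were higher and 30.0% lower. In WT-MyoD over untreated cells 29 were higher, 31 lower and 41 neither, where 25.7% and 22.2% of all genes were called, and in VP64-MyoD over WT-MyoD cells 19 were higher, 35 lower and 47 neither, where 28.4% and 28.2% were. The share called higher in VP64-MyoD over untreated cells was thus near that of all genes. The counts below are by role and include the 10 genes, and levels given with ± are the mean and SD of 2 libraries per group.

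**Figure D4:**
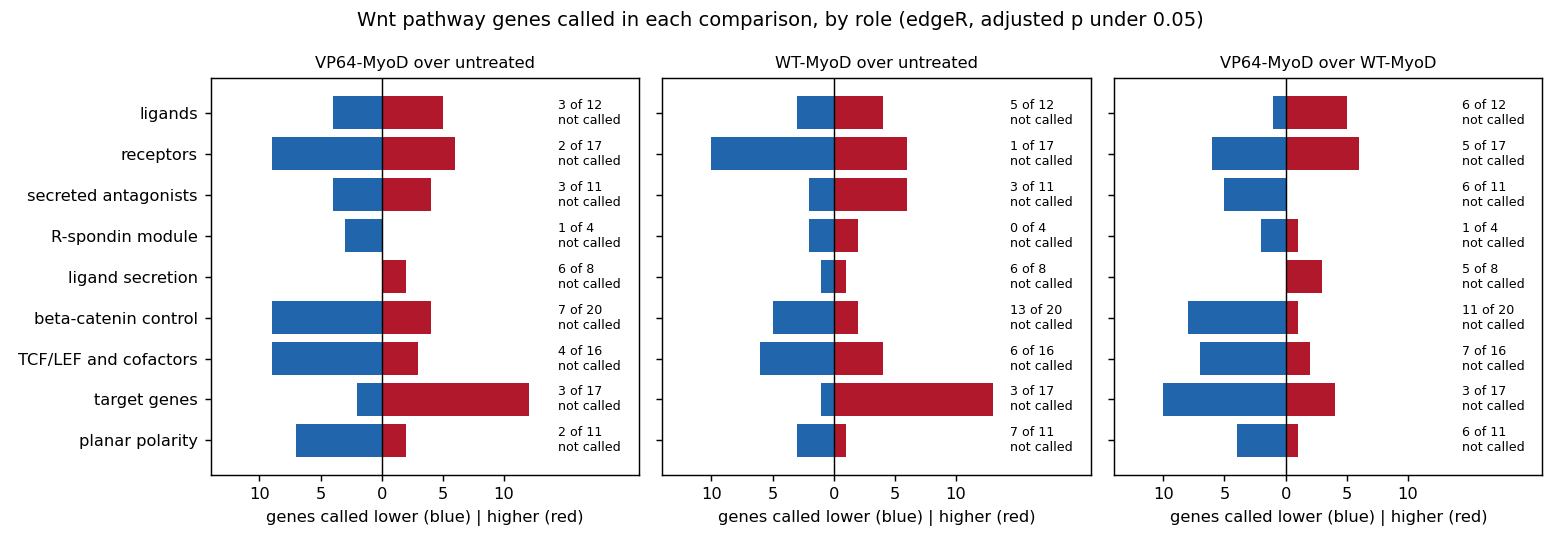
Number of Wnt pathway genes called higher (red, right) or lower (blue, left) in each of the 3 comparisons, by role, with the number not called written beside each bar. Target genes have 12 higher in VP64-MyoD over untreated and 13 higher in WT-MyoD over untreated, and secreted antagonists have 0 higher in VP64-MyoD over WT-MyoD. Of all genes, 33.0%, 25.7% and 28.4% were called higher in these 3 comparisons.

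Among 19 ligands, 12 passed the filter. In VP64-MyoD over untreated cells 5 were higher and 4 lower, beside 33.0% and 30.0% of all genes. In WT-MyoD over untreated cells 4 were higher and 3 lower, beside 25.7% and 22.2%. In VP64-MyoD over WT-MyoD cells 5 were higher and 1 was lower, beside 28.4% and 28.2%. WNT10A, a ligand of canonical signalling in skin, averaged 57.9 ± 5.67 CPM in VP64-MyoD cells and 8.52 ± 0.0819 CPM in WT-MyoD cells, where the untreated libraries held 0 and 4 counts. Every deposited count is even, so counts were divided by 2 for the intervals here: WNT10A was 1354-fold higher in VP64-MyoD over untreated cells (exact 95% counting interval 375 to 11188) and 200.3-fold higher in WT-MyoD over untreated cells (55.1 to 1659). WNT2 had the same order of groups as WNT5A, at 4.51 and 4.58 CPM in VP64-MyoD cells, 1.27 and 1.12 CPM in WT-MyoD cells, and 7.98 and 7.68 CPM in untreated cells. WNT4, a ligand of kidney and gonad development, averaged 0.804 ± 0.382 CPM in VP64-MyoD cells, 0.957 ± 0.0455 CPM in WT-MyoD cells and 6.82 ± 0.782 CPM in untreated cells, and fell in both comparisons with untreated cells.

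Of 18 receptors and co-receptors, 17 passed the filter, and 6 were higher and 9 lower in VP64-MyoD over untreated cells. In WT-MyoD over untreated cells 6 were higher and 10 lower, and in VP64-MyoD over WT-MyoD cells 6 were higher and 6 lower. All tested genes gave 33.0% higher and 30.0% lower, 25.7% and 22.2%, and 28.4% and 28.2% in the same order of comparisons. The WNT5A receptor ROR2 averaged 13.1 ± 0.845 CPM in VP64-MyoD cells, 3.20 ± 0.226 CPM in WT-MyoD cells and 17.3 ± 2.17 CPM in untreated cells, and fell in WT-MyoD over untreated cells by 2.45 log2 units (SE 0.13, edgeR adjusted p = 1.64e-10). ROR1 averaged 27.0 ± 1.16 CPM in VP64-MyoD cells, 46.7 ± 0.615 CPM in WT-MyoD cells and 127 ± 7.26 CPM in untreated cells. LRP5, which DKK1 binds, averaged 74.6 ± 6.33 CPM in VP64-MyoD cells, 176 ± 19.6 CPM in WT-MyoD cells and 55.0 ± 3.39 CPM in untreated cells, and rose with both forms of MyoD. LRP6, which DKK1 binds as well, averaged 84.6 ± 0.909 CPM in VP64-MyoD cells, 124 ± 11.3 CPM in WT-MyoD cells and 150 ± 0.0467 CPM in untreated cells, and fell in VP64-MyoD over untreated cells (log2 -0.83, SE 0.07, edgeR adjusted p = 4.26e-08) and in WT-MyoD over untreated cells (log2 -0.28, SE 0.07, adjusted p = 0.00303). KREMEN2, a co-receptor of DKK proteins, averaged 69.8 ± 5.6 CPM in VP64-MyoD cells and 3.32 ± 0.398 CPM in WT-MyoD cells, where the untreated libraries held 0 and 4 counts. KREMEN2 was 1632-fold higher in VP64-MyoD over untreated cells (exact 95% counting interval 451 to 13481), in the group where DKK1 was lowest.

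Of 17 secreted antagonists, 11 passed the filter. In VP64-MyoD over untreated cells 4 were higher and 4 lower, near the 33.0% and 30.0% of all genes. In WT-MyoD over untreated cells 6 were higher and 2 lower, beside 25.7% and 22.2%. In VP64-MyoD over WT-MyoD cells 0 were higher and 5 lower, beside 28.4% and 28.2%. Beside the DKK and SFRP genes, IGFBP4 averaged 214 ± 0.235 CPM in VP64-MyoD cells, 813 ± 73.1 CPM in WT-MyoD cells and 742 ± 4.92 CPM in untreated cells, and fell in VP64-MyoD over untreated cells (log2 -1.79, SE 0.07, edgeR adjusted p = 6.77e-12). SERPINF1 averaged 237 ± 8.23 CPM in VP64-MyoD cells, 256 ± 4.66 CPM in WT-MyoD cells and 124 ± 5.42 CPM in untreated cells, and so rose in both as DKK3 did. Of the 9 genes around R-spondin, 4 passed the filter, and RSPO1 fell in both MyoD groups, with 0 and 2 counts in VP64-MyoD cells, 26 and 18 in WT-MyoD cells, and 80 and 78 in untreated cells. RSPO1 and RSPO3 thus both fell in VP64-MyoD over untreated cells, and they moved in opposite directions in WT-MyoD over untreated cells.

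The other DNA-binding partners of β-catenin each differed from LEF1 in their order of groups. TCF7 averaged 25.0 ± 1.04 CPM in VP64-MyoD cells, 65.6 ± 2.64 CPM in WT-MyoD cells and 16.3 ± 1.03 CPM in untreated cells, and was higher in WT-MyoD over untreated cells by 2.01 log2 units (SE 0.08, edgeR adjusted p = 6.09e-12). TCF7L1, largely a repressor, averaged 25.3 ± 0.237 CPM in VP64-MyoD cells, 50.02 ± 1.03 CPM in WT-MyoD cells and 32.5 ± 1.67 CPM in untreated cells. TCF7L2 averaged 39.6 ± 2.76 CPM in VP64-MyoD cells, 42.9 ± 3.82 CPM in WT-MyoD cells and 78.6 ± 1.24 CPM in untreated cells, and fell in VP64-MyoD over untreated cells (log2 -0.99, SE 0.08, edgeR adjusted p = 1.71e-08) and in WT-MyoD over untreated cells (log2 -0.88, SE 0.08, adjusted p = 8.9e-08). The co-repressor TLE1 averaged 7.56 ± 0.422 CPM in VP64-MyoD cells, 30.7 ± 0.186 CPM in WT-MyoD cells and 14.0 ± 0.365 CPM in untreated cells. Of 16 TCF and LEF factors and cofactors past the filter, of 17 listed, 3 were higher and 9 lower in VP64-MyoD over untreated cells. In WT-MyoD over untreated cells 4 were higher and 6 lower, and in VP64-MyoD over WT-MyoD cells 2 were higher and 7 lower. The shares of all genes, higher and lower, were 33.0% and 30.0%, 25.7% and 22.2%, and 28.4% and 28.2% in that order.

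AXIN2 and LEF1 belong to a list of 22 genes known as targets of β-catenin in one tissue or another, of which 17 passed the filter. In VP64-MyoD over untreated cells 12 were higher and 2 lower, beside 33.0% and 30.0% of all genes, with a median log2 fold change of 0.61 beside 0.03 over all genes. In WT-MyoD over untreated cells 13 were higher and 1 was lower, beside 25.7% and 22.2% of all genes, with a median of 1.17 beside 0. In VP64-MyoD over WT-MyoD cells 4 were higher and 10 lower, beside 28.4% and 28.2% of all genes, with a median of -0.61 beside 0.02. The list was chosen with earlier results of these data known. TNFRSF19 averaged 91.6 ± 1.7 CPM in VP64-MyoD cells, 141 ± 2.38 CPM in WT-MyoD cells and 8.17 ± 0.331 CPM in untreated cells. CCN4 fell in both comparisons with untreated cells, at 93.7 ± 5.05 CPM in VP64-MyoD cells, 16.8 ± 0.0672 CPM in WT-MyoD cells and 200 ± 3.75 CPM in untreated cells, the same order as WNT5A.

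**Figure D5:**
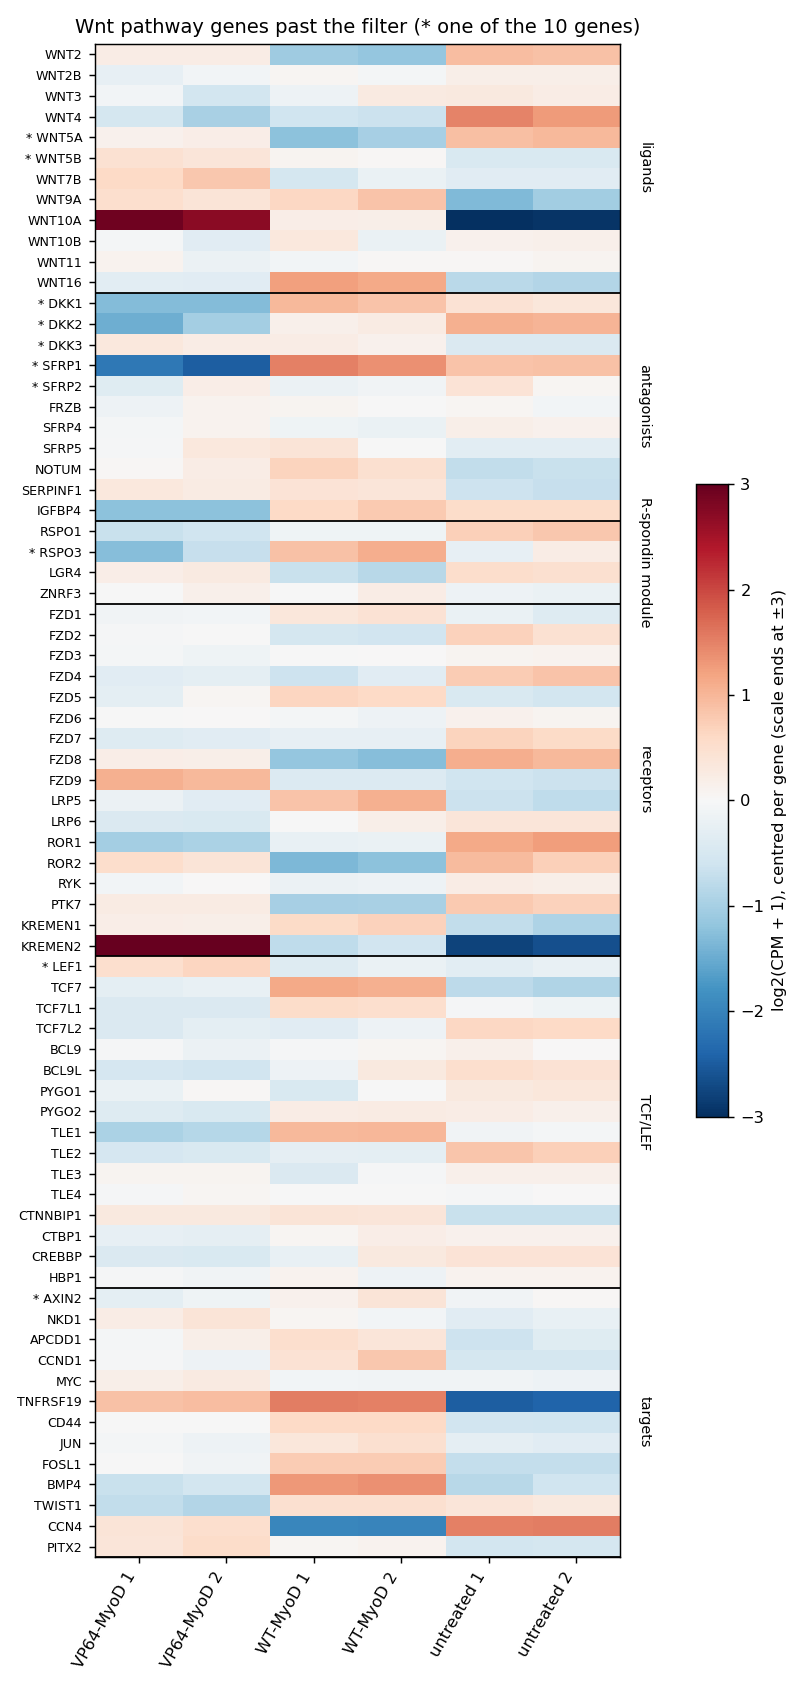
Log2(CPM + 1) of the ligands, antagonists, R-spondin genes, receptors, TCF and LEF factors with cofactors, and target genes past the filter, centred per gene (red high, blue low), in the 2 VP64-MyoD, 2 WT-MyoD and 2 untreated libraries; an asterisk marks each of the 10 genes. The 2 libraries of a group share their colours for most genes, and WNT10A and KREMEN2 have the strongest contrast.

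The remaining lists cover ligand secretion, β-catenin turnover and planar polarity. Their counts stand beside 33.0% of all genes higher and 30.0% lower in VP64-MyoD over untreated cells. The same shares were 25.7% and 22.2% in WT-MyoD over untreated cells, and 28.4% and 28.2% in VP64-MyoD over WT-MyoD cells. Of 8 secretion genes past the filter, 2 were higher and 0 lower in VP64-MyoD over untreated cells. In WT-MyoD over untreated cells 1 was higher and 1 lower, and in VP64-MyoD over WT-MyoD cells 3 were higher and 0 lower. WLS, which carries Wnt proteins to the cell surface, averaged 37.1 ± 0.598 CPM in VP64-MyoD cells, 30.8 ± 5.32 CPM in WT-MyoD cells and 20.1 ± 1.84 CPM in untreated cells. Of 20 genes of β-catenin control, AXIN2 among them, 4 were higher and 9 lower in VP64-MyoD over untreated cells. In WT-MyoD over untreated cells 2 were higher and 5 lower, and in VP64-MyoD over WT-MyoD cells 1 was higher and 8 lower. CTNNB1, which encodes β-catenin, averaged 447 ± 4.59 CPM in VP64-MyoD cells, 359 ± 21.2 CPM in WT-MyoD cells and 323 ± 19.6 CPM in untreated cells. It was called higher in VP64-MyoD over untreated cells (log2 0.47, SE 0.07, edgeR adjusted p = 2.24e-05). In WT-MyoD over untreated cells it was not called (log2 0.15, SE 0.07, edgeR adjusted p = 0.0765). Of 11 planar polarity genes past the filter, of 12 listed, 2 were higher and 7 lower in VP64-MyoD over untreated cells, 1 higher and 3 lower in WT-MyoD over untreated cells, and 1 higher and 4 lower in VP64-MyoD over WT-MyoD cells. CELSR1, a cadherin of that pathway, was at 61.9 and 60.9 CPM in VP64-MyoD cells, 9.01 and 11.3 CPM in WT-MyoD cells, and 44.3 and 40.2 CPM in untreated cells.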

How the data were processed

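RNA counts came from 6 libraries in 3 groups of 2, grouped by their titles. Reads were processed with CASAVA and Bowtie 0.12.9 on hg19 and tested with DESeq 1.10.1, per the submitters' processing notes; the role of each step is not given in the sources used here. The authors deposited raw counts per RefSeq transcript and a table of changed transcripts. Per the file headers, that deposited table holds normalised means (a signal), fold changes as a ratio and as log2, and p-values. Of these only log2 values and the largest adjusted p-values are quoted. Every deposited count is even.

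The 40710 rows were summed by symbol through RefSeq (39324 rows) and GENCODE 29 (517 rows). The 868 rows with no symbol held 0.601% to 0.744% of counts and kept their own identifiers. The test used edgeR 4.0.16 under R 4.3.3, with TMM scaling, filterByExpr (minimum count 10, minimum total 15), and a quasi-likelihood fit of all 6 libraries with 3 residual degrees of freedom. Benjamini-Hochberg adjustment ran over 15778 genes and the transgene. Shares and medians over all genes leave the transgene out. Each SE was derived from the log2 fold change and its F statistic. The fit shares its estimate of spread over all groups, although the duplicates differed most in WT-MyoD cells. On halved counts, chi-square per degree of freedom between duplicates was 5.88 in VP64-MyoD, 13.5 in WT-MyoD and 3.43 in untreated cells. The procedure was tested on simulated data. Per-length levels use the longest matched GENCODE transcript. Intervals cover counting error only.

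The 10 genes and the role lists were chosen with earlier results of these data known. All 10 are named, with up to 4 genes per role list and comparison of smallest adjusted p among those called as the pool for other names, the 2 genes nearest in pattern to each of the 10 (not printed for LEF1), and the transgene. Alternatives were other scalings, filters, tools (DESeq2 1.42.0, limma 3.58.1), halved counts, a replicate block, separate transcripts, 2 groups in a fit, and each library left out.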

Additional observations from a re-analysis of the deposited data

Results flagged for a closer look

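For 6 Wnt pathway genes the VP64-MyoD and WT-MyoD groups were called in opposite directions over the same untreated libraries, and the direct test of VP64-MyoD over WT-MyoD cells (edgeR, adjusted over all genes) passed. Of all genes, 63.1% were called in VP64-MyoD and 47.9% in WT-MyoD over untreated cells. The share of all genes called in opposite directions is not given here, so these 6 cannot be set against it. Among the 10 genes these are SFRP1 at log2 -4.09 (adjusted p = 2.57e-13), RSPO3 at log2 -2.35 (adjusted p = 2.73e-07) and DKK1 at log2 -2.25 (adjusted p = 5.77e-13). Among the other listed genes they are TLE1 at log2 -2.02 (adjusted p = 4.05e-11), TCF7L1 at log2 -0.98 (adjusted p = 1.44e-08) and CELSR1 at log2 2.60 (adjusted p = 5.85e-12). CELSR1 has the opposite sign to the other 5. The transgene itself was 3.06 log2 units lower in VP64-MyoD cells, and its part in these differences was not tested.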

How the results depend on the processing

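Of the fold changes of the 10 genes recomputed under every alternative, 497 kept their direction and their side of the threshold, 4 lost and 4 gained a call, and 5 changed sign. Of the counts of calls, 190 stayed within 1.5 times the reported count. The 2 that did not were the genes called lower with scaling by library totals alone, at 3125 in VP64-MyoD over untreated cells (4739 with TMM) and 1876 in WT-MyoD over untreated cells (3498 with TMM). The sign changes were all in values that did not pass the test: AXIN2 in VP64-MyoD over untreated cells was 0.0023 under library totals, LEF1 in WT-MyoD over untreated cells was 0.015 under library totals and ran from -0.63 to 0.29 with 1 library left out, and SFRP2 in VP64-MyoD over WT-MyoD cells ran from -0.36 to 0.52. All 4 lost calls were AXIN2 in WT-MyoD over untreated cells, whose adjusted p ran from 0.00141 to 0.216. SFRP2 in WT-MyoD over untreated cells gained a call with no filter (adjusted p = 0.0177). LEF1 in VP64-MyoD over WT-MyoD cells was 3.04 when transcripts were fitted separately and ran from 1.93 to 2.86 with 1 library left out. With the replicate number as a block, the 10 genes' calls were 3 higher and 5 lower, 6 higher and 2 lower, and 3 higher and 5 lower in the 3 comparisons, as without it. The differences of replicate 1 minus replicate 2 within each group were also correlated between groups over 9209 genes. The correlation was -0.083 for VP64-MyoD and WT-MyoD, 0.048 for VP64-MyoD and untreated, and 0.129 for WT-MyoD and untreated. LEF1, SFRP2, DKK2 and RSPO3 each have a library with at most 70 counts.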
